A study of Homo sapiens with 9 samples.

Results

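The translation factors and their companion 5′ TOP messages are the 56 genes described here, out of 59648 genes in the deposited count files. They were taken by symbol from a list of what they encode, drawn up with earlier results of these data known, and leave ribosomal proteins aside. They comprise 38 initiation factor genes, with EIF6 counted among them, the 2 poly(A)-binding proteins PABPC1 and PABPC4, 8 elongation genes, 4 further proteins made from TOP messages and 4 snoRNA host RNAs. Of the 56, 55 had enough reads to be tested. EEF1G, the gamma subunit of the elongation factor eEF1, was listed at 0 counts in all 9 libraries and was not tested.

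The samples are 9 RNA-seq libraries of Kasumi-1, a human line of acute myeloblastic leukaemia with the t(8;21) translocation, whose product is the AML1-ETO fusion (AE). Cells of all 3 groups received shRNA lentivirus and, after 48 h, 1 μg/mL puromycin for a further 48 h, and were taken on day 4. The 3 control libraries carry a control shRNA, the 3 AE knockdown libraries carry AE shRNAs numbered 1, 2 and 3, and the 3 LYL1 knockdown libraries carry LYL1 shRNAs numbered 538, 540 and 542. AE is the fusion protein itself, and LYL1 is a basic helix-loop-helix factor that the series title places in the AE transcription factor complex. The study asked what changes when either is lost. All libraries are of 1 cell line. Whether the AE numbers stand for different shRNAs or for repeats, and whether each library is its own culture, is not stated, so every p-value rests on the spread among these libraries, which may be technical.

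Initiation factors bring the small ribosomal subunit to a messenger RNA: the eIF4 proteins bind the cap and unwind the leader, eIF3 holds the small subunit, and eIF2 delivers the initiator transfer RNA and is recharged by eIF2B. Elongation factors then carry each aminoacyl-transfer RNA to the ribosome (eEF1) and move the ribosome along (eEF2). Messages of most ribosomal proteins, and of a group of translation factors, begin with a C and a run of pyrimidines, the 5′ terminal oligopyrimidine (TOP) tract, through which mTOR signalling and the RNA-binding protein LARP1 control their translation and stability. Of the 56 genes, 18 were marked as described TOP messages in the list used here. They are EIF3E, EIF3F, EIF3H, EIF4B, PABPC1, 5 elongation factor genes, the 4 further proteins and the 4 snoRNA hosts. Other lists of TOP messages may hold more of the 56.

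The first bases of the annotated transcripts show the tract itself. RefSeq start sites on GRCh38.p14 were found for 46 of the 56 genes, and a TOP start was read, on the gene's own strand, as a C at the first base followed by at least 4 bases that are each C or T. At least 1 such start was present in 16 of the 46 genes, while 4.07% of all 35116 start sites in the table have one, as do 7.44% of the 9830 tested genes with a start site there. With a slack of 5 bases the counts were 25 of 46 genes, 21.1% of all start sites and 29.4% of those tested genes. Of the described TOP messages 10 of 13 had one, and of the other genes 6 of 33, which were EIF2A, EIF2S3, EIF3D, EIF3K, EIF3M and EIF4A2. Below are EEF1A1, the textbook case, then the 6 genes with a TOP start that rose with AE knockdown, and 3 that fell. Of these 3, which have no TOP start at the first base, EEF2K has one with the slack of 5 bases. Each window holds 15 bases before the first base and 15 from it on, and in the TOP starts the capitals mark the run of pyrimidines from the first base. In EEF1B2 that run goes on past the window, to 16 bases.
EEF1A1, chr6:73521018-73521047, minus strand: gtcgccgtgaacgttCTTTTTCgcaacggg
EEF1B2, chr2:206159880-206159909, plus strand: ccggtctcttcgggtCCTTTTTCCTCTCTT
EIF3K, chr19:38619173-38619202, plus strand: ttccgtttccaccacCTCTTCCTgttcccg
NACA, chr12:56725285-56725314, minus strand: acgctctcgctcggtCTTTCTgccgccatc
RACK1, chr5:181243892-181243921, minus strand: ggggggcttttctctCTCTCTTTCactgca
SNHG5, chr6:85678719-85678748, minus strand: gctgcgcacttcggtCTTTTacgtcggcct
TPT1, chr13:45341169-45341198, minus strand: agcggctgagtcggcCTTTTCCgcccgctc
EIF4E, chr4:98929119-98929148, minus strand: ccttctggagcggttgtgcgatcagatcga
EEF2K, chr16:22206263-22206292, plus strand: tgcccgcccgcttctgctcaacctagacca
EIF4H, chr7:74174341-74174370, plus strand: ccttcctcgctcaccctggttcctctcgga

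Library totals ran from 20103275 to 28039518 counts. The fusion's ETO part, RUNX1T1, lay at 212 to 223 CPM (read counts scaled to a common library size with TMM factors) with control shRNA and at 114, 136 and 87.7 CPM with AE knockdown. LYL1 lay at 143 to 172 CPM with control shRNA and at 80.4, 98.4 and 43.9 CPM with LYL1 knockdown, without passing the test (edgeR adjusted p = 0.527). AE knockdown replicate 3 stood apart: its TMM factor of 0.914 lay below the range of 0.997 to 1.04 of the other 8, and 1.21% of its counts were mitochondrial ribosomal RNA against 0.483% to 0.791% elsewhere. Myeloblast markers were high in all groups (summed 22434 to 26227 CPM in controls). Summed markers of maturing granulocytes and monocytes, of which 8 of 10 were tested and all 8 rose, lay at 98.3 to 107 CPM in controls, 596 to 4650 CPM with AE knockdown and 99.0 to 164 CPM with LYL1 knockdown, and summed proliferation markers at 2227 to 2387, 1191 to 1930 and 1842 to 2008 CPM. Erythroid, lymphoid, and fibroblast or epithelial markers summed to at most 2.18, 17.9 and 1.40 CPM in any library, with HBA1, MS4A1 and COL1A2 among those at 0 in all controls.

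With AE knockdown 12 of the 55 tested genes rose and 6 fell at an edgeR adjusted p below 0.05, and 37 were not called. The background was 11.4% of all 14741 tested genes higher and 10.4% lower, so that rises were more frequent among the 55 than among all genes and falls about as frequent. The 17 tested TOP messages gave 9 of the 12 rises and none of the 6 falls: their median log2 fold change was 0.67, all 17 were above 0, and in 14 of the 17 all AE libraries lay above all controls, where 23.1% of all tested genes did so. DESeq2 called 10 of the 17 higher and limma-voom 6, with 0 lower by either. Without control replicate 1, 2 or 3 the number of TOP messages called higher was 4 each time, with all 17 still above 0. The 38 other genes gave 3 rises and 6 falls with a median of -0.18, against a median of 0.05 over all tested genes. Over the 55 genes, 20 had all AE libraries above all controls and 13 had all of them below, where 22.2% of all tested genes lay below. The difference between the TOP messages and the rest was not tested.

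**Figure D1:**
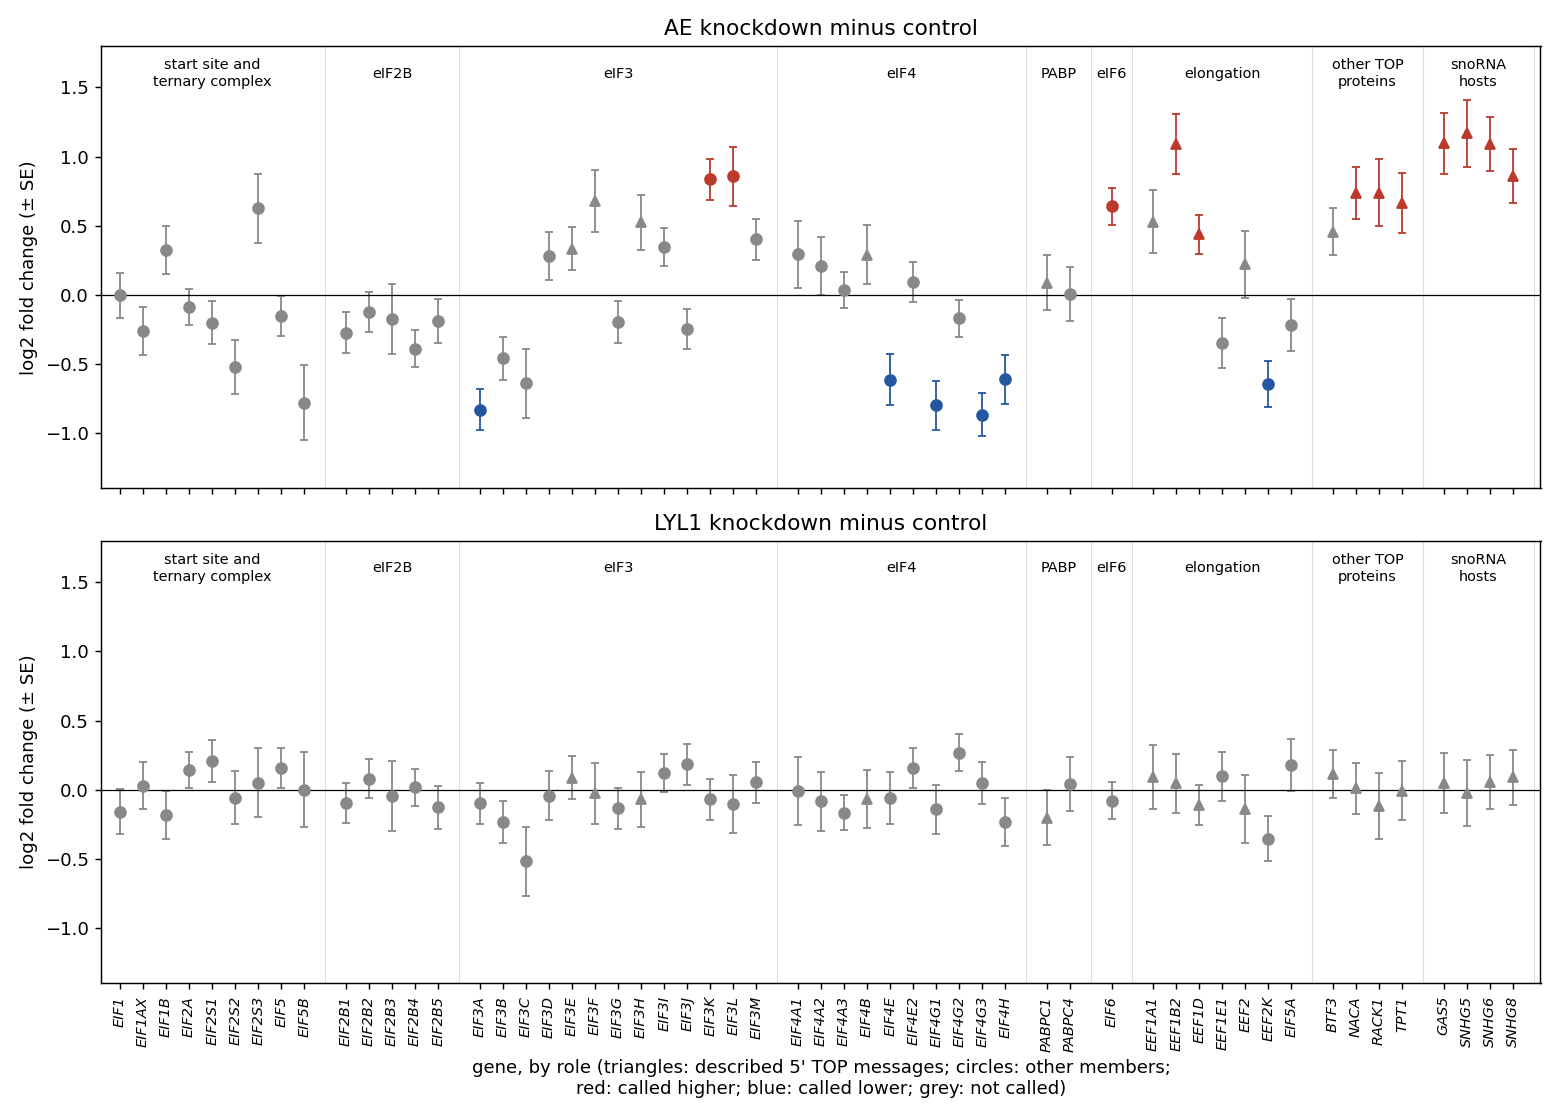
Log2 fold change ± SE of the 55 tested genes, by role, for AE knockdown against control (top) and LYL1 knockdown against control (bottom); triangles are described TOP messages, circles the other genes, and red, blue and grey mark called higher, called lower and not called. All 17 triangles lie above 0 in the top panel, and no gene is called in the bottom panel.

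Of the 10 eIF4 genes 4 fell and 0 rose with AE knockdown, where 10.4% of all tested genes fell and 11.4% rose. Their median log2 fold change was -0.07. eIF4G is the scaffold that joins the cap-binding protein to eIF3, and EIF4G1 and EIF4G3 encode its 2 main forms. EIF4G1 was at 909, 918 and 873 CPM in the controls, at 579, 590 and 382 CPM with AE knockdown and at 884, 819 and 743 CPM with LYL1 knockdown. All 3 AE libraries lay below every other library, and the fall with AE knockdown was 1.74-fold (log2 fold change -0.80, SE 0.18, edgeR adjusted p = 0.0125; 0.0513 without control replicate 1 and 0.0550 without control replicate 2). EIF4G3 was at 167, 165 and 154 CPM in the controls, at 88.7, 101 and 76.3 CPM with AE knockdown and at 170, 140 and 192 CPM with LYL1 knockdown. Again no AE library overlapped the others, and the fall was 1.82-fold (log2 fold change -0.87, SE 0.15, edgeR adjusted p = 0.00575).

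EIF4E, the cap-binding protein, was at 87.9, 101 and 109 CPM in the controls, at 68.1, 77.7 and 49.1 CPM with AE knockdown and at 104, 77.6 and 104 CPM with LYL1 knockdown. The AE libraries lay below the controls but 1 LYL1 library lay among them. The log2 fold change with AE knockdown was -0.61 (SE 0.19, edgeR adjusted p = 0.0391), and it was not called without any 1 control, AE replicate 1 or 3, or LYL1 replicate 538 (adjusted p 0.0509 to 0.136). EIF4H, which aids the helicase eIF4A, was at 237, 269 and 277 CPM in the controls, at 199, 190 and 124 CPM with AE knockdown and at 231, 211 and 224 CPM with LYL1 knockdown. It fell by 0.61 on the log2 scale (SE 0.18, edgeR adjusted p = 0.0314; 0.0693 to 0.109 without any 1 control). The groups stood in the order control, LYL1 knockdown, AE knockdown, and the LYL1 and control groups did not overlap, though the LYL1 difference of -0.23 was not called.

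The other 6 eIF4 genes did not pass the test with AE knockdown. EIF4A2 and EIF4A3, helicases of the eIF4A family, had log2 fold changes of 0.21 and 0.04, EIF4B, a TOP message for a helicase cofactor, had 0.29, and EIF4E2, a cap-binding relative, had 0.09. EIF4G2, a relative of eIF4G that lacks the eIF4E-binding site, was at 1465, 1445 and 1319 CPM in the controls, at 1309, 1249 and 1203 CPM with AE knockdown and at 1700, 1624 and 1763 CPM with LYL1 knockdown. It lay lowest in the AE and highest in the LYL1 libraries. EIF4A1, the main helicase, had only 77 to 136 counts per library, and 48.6% of its annotated exon bases also belong to other genes, so its value is uncertain. DESeq2 and limma-voom called the same 4 eIF4 genes lower as edgeR and none higher.

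eIF3 had subunits called in both directions. Its largest subunit EIF3A, the scaffold of the complex, was at 702, 708 and 824 CPM in the controls, at 484, 406 and 367 CPM with AE knockdown and at 696, 670 and 719 CPM with LYL1 knockdown. AE libraries lay below all others, a fall of 1.78-fold against control (log2 fold change -0.83, SE 0.15, edgeR adjusted p = 0.00576). EIF3K, a small peripheral subunit, went the other way, from 152, 148 and 150 CPM to 226, 271 and 304 CPM, with 157, 148 and 122 CPM in the LYL1 libraries. It rose 1.79-fold (log2 fold change 0.84, SE 0.15, edgeR adjusted p = 0.00578), and the AE libraries were again clear of the rest.

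EIF3L, the partner of EIF3K in the complex, was at 193, 197 and 193 CPM in the controls, at 336, 250 and 471 CPM with AE knockdown and at 213, 178 and 150 CPM with LYL1 knockdown. It rose 1.81-fold (log2 fold change 0.86, SE 0.21, edgeR adjusted p = 0.0189; 0.0709 to 0.0718 without any 1 control). On the same strand 41.1% of its annotated exon bases are shared with AL022311.1, whose own row held 36 to 56 counts against 3012 to 9782 for EIF3L. The remaining 10 subunits were not called against control. EIF3F, a TOP message for a subunit of the MPN pair with EIF3H, came nearest on the high side, at 172, 170 and 150 CPM in the controls and 215, 205 and 365 CPM with AE knockdown (log2 fold change 0.68, edgeR adjusted p = 0.0521; 0.35 and 0.147 without AE replicate 3, and called without AE replicate 1 or 2, at 0.0427 and 0.0236). EIF3B, a core subunit, came nearest on the low side, at 336, 344 and 367 CPM and 292, 269 and 201 CPM (log2 fold change -0.46, edgeR adjusted p = 0.0528), and DESeq2 and limma-voom called it.

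Over the 13 subunits 2 rose and 1 fell, with a median log2 fold change of 0.33. Over all tested genes 11.4% rose and 10.4% fell, so these counts were near the general share. EIF3D, EIF3E, EIF3F, EIF3H, EIF3I, EIF3K, EIF3L and EIF3M were above 0, and EIF3A, EIF3B, EIF3C, EIF3G and EIF3J below. EIF3C held 47 to 104 counts per library and has a near-identical copy, EIF3CL, that held 345 counts in control replicate 1 and 2 to 8 in the other 8 libraries, so reads of the pair may be split between the rows. Per kilobase of annotated exon the control level ranged from 438 CPM for EIF3E to 0.989 CPM for EIF3C.

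**Figure D2:**
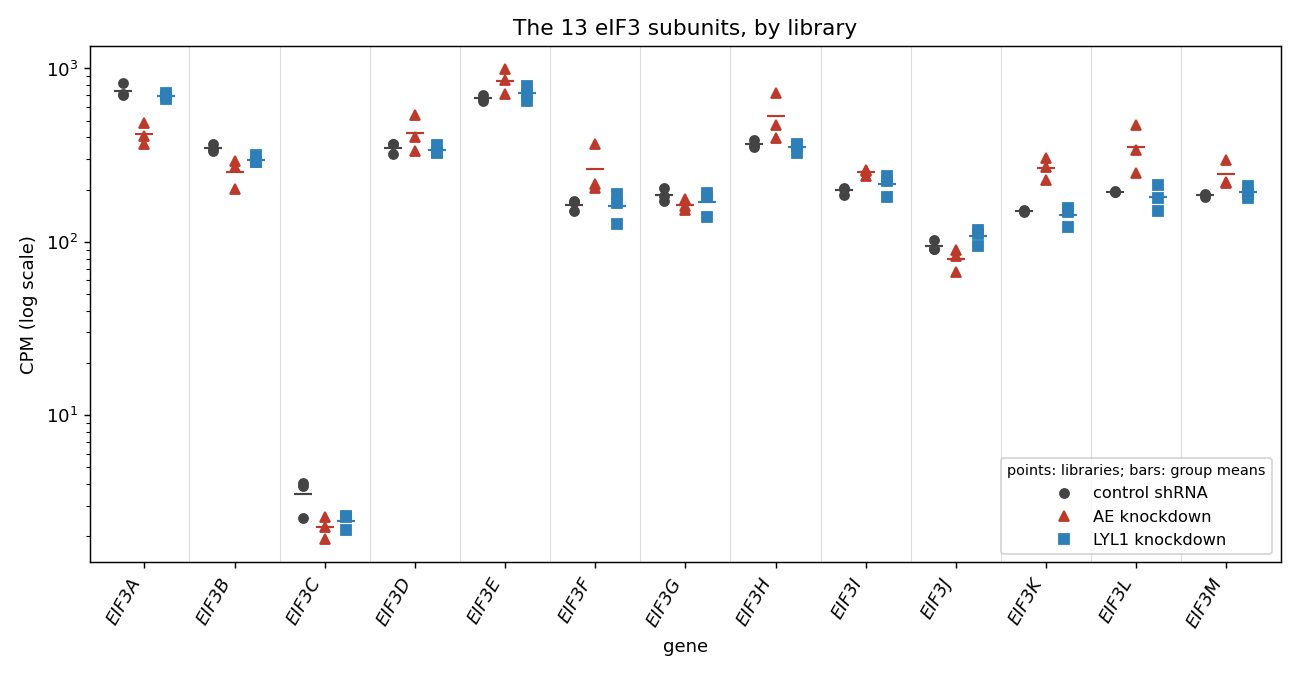
CPM (log axis) of the 13 eIF3 subunits in each library; circles, triangles and squares are control, AE knockdown and LYL1 knockdown libraries and bars are group means. Of the called subunits, EIF3A is lower and EIF3K and EIF3L are higher in all 3 AE libraries than in all 6 others. The same separation is seen in subunits not called against control, upward in EIF3F, EIF3H and EIF3M and downward in EIF3J. EIF3C lies far below the other subunits.

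Start-site selection, the ternary complex and eIF2B showed no call by edgeR. The 9 genes of the first group (EIF1, EIF1AX, EIF1B, EIF2A, EIF2S1, EIF2S2, EIF2S3, EIF5 and EIF5B) had a median log2 fold change of -0.15, with 3 at an unadjusted p below 0.05. Over all 14741 tested genes 5488 had an unadjusted edgeR p below 0.05, so this count is no excess. EIF5B, which joins the ribosomal subunits, was at 402, 411 and 463 CPM in the controls and 304, 313 and 127 CPM with AE knockdown (log2 fold change -0.78, SE 0.27, edgeR adjusted p = 0.0637). The 3 subunits of eIF2 did not go one way: EIF2S2 was at -0.52, EIF2S3 at 0.63 and EIF2S1 at -0.20, none of them called by edgeR. DESeq2 called EIF2S2 and EIF5B lower and limma-voom called none of the 9. All 5 eIF2B subunits, the exchange factor that recharges eIF2, were below 0 (median -0.19, lowest EIF2B4 at -0.39 with an edgeR adjusted p of 0.0555). EIF2B4 had the 1 unadjusted p below 0.05 among them, DESeq2 called it lower and limma-voom called none. PABPC1 and PABPC4, which bind the poly(A) tail and circularise the message, were at 0.09 and 0.00, with no call by any of the 3 tools and no unadjusted p below 0.05. PABPC1 is a described TOP message and its AE libraries, at 3166, 2504 and 4168 CPM, spanned the controls at 3158, 3125 and 2971 CPM.

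EIF6 keeps the large ribosomal subunit from joining too early and also acts in its assembly. It was at 35.4, 35.9 and 32.9 CPM in the controls, at 60.4, 54.6 and 47.2 CPM with AE knockdown and at 33.9, 30.7 and 34.1 CPM with LYL1 knockdown. It rose 1.56-fold (log2 fold change 0.64, SE 0.13, edgeR adjusted p = 0.0102; 0.0544 without control replicate 3). It was the 1 gene of the 12 that rose whose highest AE value was not in replicate 3.

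Among elongation factors the guanine exchange subunits rose. EEF1B2, the beta subunit that reloads eEF1A with GTP, was at 415, 420 and 458 CPM in the controls, at 772, 758 and 1222 CPM with AE knockdown and at 467, 527 and 341 CPM with LYL1 knockdown. It rose 2.13-fold (log2 fold change 1.09, SE 0.22, edgeR adjusted p = 0.00850), and the lowest AE library lay above the highest of the other 6. EEF1D, the delta subunit, was at 77.9, 75.9 and 79.1 CPM in the controls, at 91.4, 106 and 118 CPM with AE knockdown and at 79.9, 74.0 and 61.9 CPM with LYL1 knockdown. It was called at a log2 fold change of 0.44 (SE 0.14, edgeR adjusted p = 0.0476). It was not called without any 1 control, AE replicate 2 or 3, or LYL1 replicate 538 or 540 (adjusted p 0.0545 to 0.157), and 34.0% of its exon bases overlap another gene on either strand. DESeq2 called EEF1D and limma-voom did not (limma-voom adjusted p = 0.0534).

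EEF1A1, which delivers aminoacyl-transfer RNA, ranked first of the 56 genes per kilobase of annotated exon, at 1244 CPM per kb in the controls, followed by EEF2 at 963 and PABPC1 at 885. The lengths are unions over annotated transcripts, so this order may differ for the transcripts expressed. The EEF1A1 libraries stood at 6262, 6403 and 6550 CPM with control shRNA, 8049, 7409 and 12285 CPM with AE knockdown and 8131, 7072 and 5295 CPM with LYL1 knockdown. AE libraries lay above all controls, but so did 2 of the 3 LYL1 libraries, and the log2 fold change of 0.53 was not called (SE 0.23, edgeR adjusted p = 0.118). EEF2, the translocase, was not called either, at 0.22. EEF2K, the kinase that phosphorylates and inhibits eEF2, fell: it was at 104, 106 and 104 CPM in the controls, at 70.6, 78.6 and 51.5 CPM with AE knockdown and at 72.9, 81.2 and 91.4 CPM with LYL1 knockdown. The fall with AE knockdown was 1.56-fold (log2 fold change -0.64, SE 0.16, edgeR adjusted p = 0.0201; 0.0666 to 0.0737 without any 1 control). The LYL1 libraries also lay below the controls, at a log2 difference of -0.35 (SE 0.16) that was not called, and AE and LYL1 knockdown did not differ by the test (adjusted p = 0.221). EEF1E1, a scaffold protein of the synthetase complex, and EIF5A, which relieves stalled ribosomes, were at -0.35 and -0.22 and were not called.

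The 4 further TOP proteins were all above 0 and edgeR called 3 higher, where 11.4% of all tested genes rose. TPT1, the translationally controlled tumour protein and a classical TOP message, was at 1858, 1872 and 2033 CPM in the controls, at 2522, 2349 and 4275 CPM with AE knockdown and at 1980, 1916 and 1841 CPM with LYL1 knockdown. NACA, a subunit of the nascent polypeptide-associated complex, was at 365, 365 and 392 CPM, then 513, 521 and 835 CPM, and 396, 373 and 362 CPM. RACK1, a scaffold bound to the small subunit, was at 1282, 1321 and 1229 CPM, then 1982, 1455 and 2958 CPM, and 1344, 1257 and 932 CPM. In each of these the AE libraries lay above all 6 others, and replicate 3 was the highest of the AE libraries.

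The log2 fold changes were 0.67 for TPT1 (SE 0.22, edgeR adjusted p = 0.0489), 0.74 for NACA (SE 0.19, 0.0203) and 0.74 for RACK1 (SE 0.24, 0.0493). Without AE replicate 3, TPT1 was at 0.33 and RACK1 at 0.41 and neither was called (edgeR adjusted p = 0.0744 and 0.124), while NACA was at 0.45 and was called (0.0179). Both also lost the call without any 1 control or any 1 LYL1 library, RACK1 without AE replicate 1 too (adjusted p up to 0.147 for TPT1 and 0.146 for RACK1), and NACA without any 1 control (0.0662 to 0.0819). By limma-voom neither TPT1 nor RACK1 was called (adjusted p = 0.0567 and 0.0638) while NACA was, and DESeq2 called all 3. BTF3, the partner of NACA, was at 864, 872 and 841 CPM in the controls and 1013, 1031 and 1493 CPM with AE knockdown, a log2 fold change of 0.46 that was not called (edgeR adjusted p = 0.0777). TPT1, NACA, RACK1, BTF3 and EEF1A1 have processed copies elsewhere in the genome, and how the authors counted reads that map to several places is not given in the sources used here.

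Of the role groups the 4 snoRNA hosts had the highest median, 1.09, and all 4 rose, where 11.4% of all tested genes did so. These transcripts carry small nucleolar RNAs in their introns, which guide the modification of ribosomal RNA, while the spliced host RNA encodes little or no protein. GAS5 was at 118, 116 and 124 CPM in the controls, at 221, 207 and 338 CPM with AE knockdown and at 130, 151 and 89.3 CPM with LYL1 knockdown, a rise of 2.14-fold with AE knockdown (log2 fold change 1.10, SE 0.22, edgeR adjusted p = 0.00894). SNHG5 was at 78.9, 75.0 and 78.6 CPM, then 146, 155 and 222 CPM, and 91.3, 90.0 and 47.3 CPM, a rise of 2.25-fold (1.17, SE 0.24, adjusted p = 0.00959). Both lay above all 6 other libraries in every AE library.

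SNHG6 was at 22.9, 22.8 and 28.2 CPM in the controls, at 43.8, 45.1 and 68.3 CPM with AE knockdown and at 26.8, 28.0 and 21.9 CPM with LYL1 knockdown (2.13-fold, log2 fold change 1.09, SE 0.20, edgeR adjusted p = 0.00595). SNHG8 was at 28.1, 31.0 and 31.0 CPM, then 54.6, 46.2 and 62.7 CPM, and 40.4, 32.1 and 23.1 CPM (1.81-fold, log2 fold change 0.86, SE 0.20, edgeR adjusted p = 0.0139; 0.0551 to 0.0654 without any 1 control). The 4 hosts were called by all 3 tools. Some of their exon bases belong to the snoRNAs or to genes on the other strand, 36.4% for SNHG6.

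**Figure D3:**
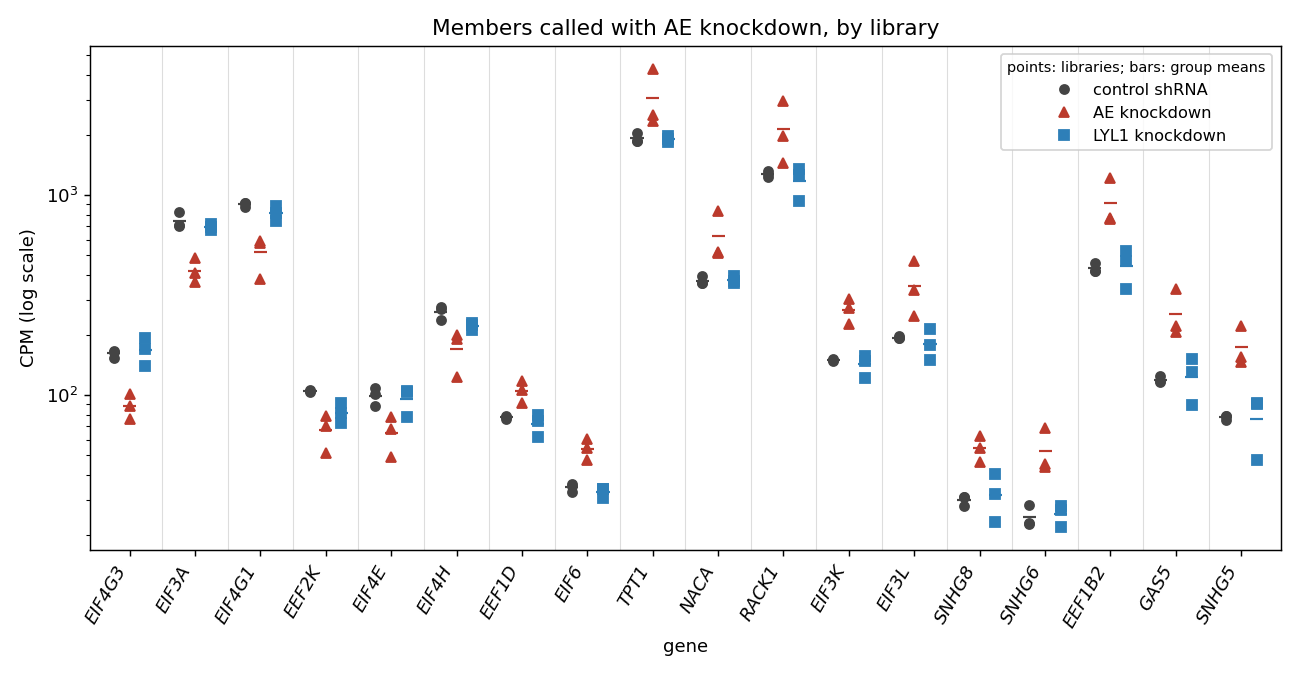
CPM (log axis) of the 18 genes called with AE knockdown, ordered by log2 fold change from EIF4G3 to SNHG5; circles, triangles and squares are control, AE knockdown and LYL1 knockdown libraries and bars are group means. In each gene the AE triangles clear the control circles, while the LYL1 squares lie all above or all below them only in EEF2K and EIF4H. In some other genes, such as EEF1B2, the squares fall on both sides of the circles.

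Genes around these factors were read from lists drawn up for the same purpose. The share to set beside each count is 11.4% of all tested genes higher and 10.4% lower. Of 77 tested cytosolic ribosomal protein genes, which are the bulk of all TOP messages, 58 rose and 0 fell with AE knockdown (median 0.84). Of 10 other TOP messages that encode no ribosomal protein 4 rose and 0 fell (median 0.46), among them COX7C, a respiratory chain subunit, at 142, 143 and 137 CPM in the controls and 204, 244 and 286 CPM with AE knockdown. Of 14 further snoRNA hosts 7 rose and 0 fell (median 0.66), with ZFAS1 at 49.3, 49.2 and 49.9 CPM and then 116, 99.0 and 194 CPM.

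Regulators of TOP messages were read in the same way. Of 16 genes of mTOR signalling and LARP1, 0 rose, 4 fell and 12 were below 0 (median -0.23). With 11.4% of all tested genes higher and 10.4% lower, 0 rises in a list this short do not stand out. Those that fell were RPTOR, the mTORC1 subunit that recruits substrates, MLST8, another mTORC1 subunit, and the RNA-binding proteins LARP1 and LARP4. Their calls were not followed through the alternative fits. RPTOR was at 274, 277 and 234 CPM in the controls, at 118, 82.5 and 62.1 CPM with AE knockdown and at 227, 246 and 213 CPM with LYL1 knockdown (log2 fold change -1.58, edgeR adjusted p = 0.00210). LARP1, which binds the TOP tract and the cap, was at 483, 488 and 471 CPM, then 325, 308 and 224 CPM, and 450, 427 and 477 CPM (-0.75, edgeR adjusted p = 0.00972). MTOR itself was at -0.31 and MYC, a driver of translation genes, at -0.25, and neither was called (adjusted p = 0.203 and 0.398).

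Among 14 initiation regulators 1 rose and 1 fell, MKNK1, a kinase of eIF4E, at 0.86 (edgeR adjusted p = 0.0101) and EIF4ENIF1, which shuttles eIF4E into the nucleus, at -0.49 (0.0228). Among the 7 eIF2 kinases and phosphatase genes 0 rose and 1 fell, EIF2AK2, the double-stranded RNA sensor PKR, at -0.53 (0.0395). Of 11 termination and recycling genes GSPT1, the release factor eRF3a, fell by 0.57 on the log2 scale (0.0373) and none rose. Of 14 genes that modify elongation factors edgeR and limma-voom called 0, and DESeq2 called 1, EIF5A2, lower. By edgeR 3 of them had an unadjusted p below 0.05, as did 5488 of all 14741 tested genes. Of 12 mitochondrial translation factors 2 rose, MTRF1 and MRRF. Over all tested genes 11.4% rose and 10.4% fell, so counts of 0 to 2 in lists this short do not stand out.

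Replicate 3 of the AE knockdown lay farthest from the controls for these genes. In the library medians against the control mean (log2 of CPM with 0.5 added), the TOP messages stood at 0.39, 0.29 and 1.05 in AE replicates 1, 2 and 3, and the other 38 genes at -0.18, -0.04 and -0.33. Replicate 3 held the highest AE value for 11 of the 12 genes that rose and the lowest for all 6 that fell. Without it the TOP median was 0.33, 16 of 17 were above 0 and 6 were called higher. The share of all counts in the 56 genes was 2.86%, 2.91% and 2.88% with control shRNA. It was 3.27%, 3.03% and 4.01% in the AE libraries and 3.30%, 2.93% and 2.47% in the LYL1 libraries. BPI, a neutrophil granule protein, was at 422, 299 and 3645 CPM in the 3 AE libraries, and MKI67, a proliferation marker, at 224, 282 and 127 CPM. The part of maturation, proliferation or that library's own quality in the changes of these genes was not tested, and in bulk RNA fewer cells of a type and less RNA per cell cannot be told apart.

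**Figure D4:**
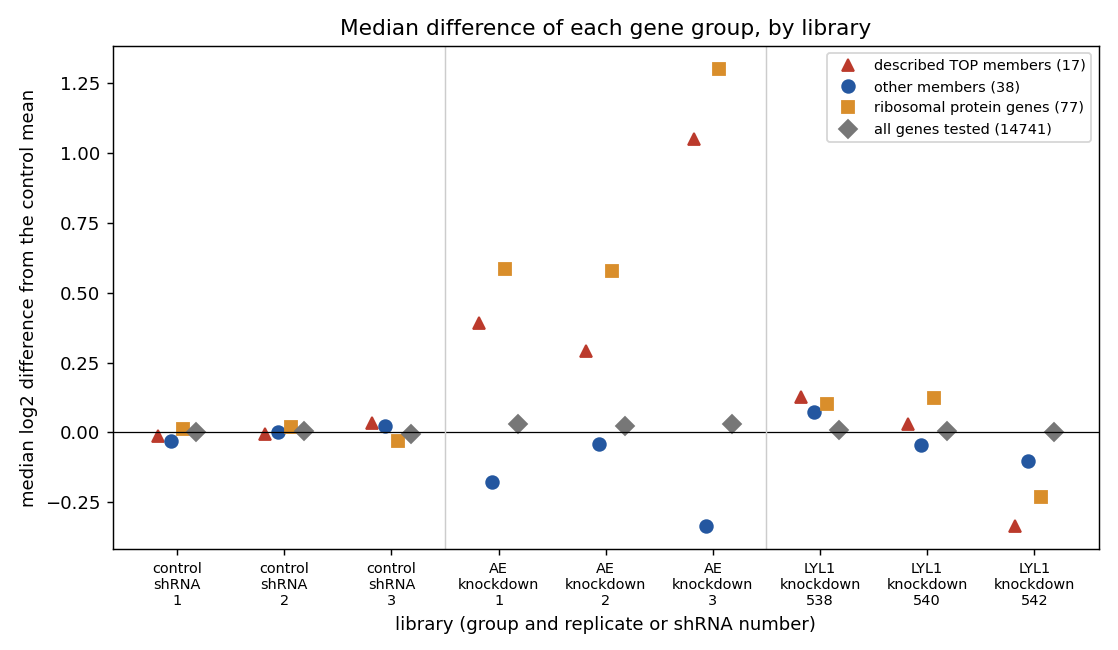
Median log2 difference from the control mean, per library, for the 17 TOP messages (triangles), the other 38 genes (circles), 77 ribosomal protein genes (squares) and all 14741 tested genes (diamonds). TOP messages and ribosomal protein genes are above 0 in all 3 AE libraries and highest in replicate 3, the other 38 genes are below 0 there, and LYL1 library 542 has TOP messages at -0.34.

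Annotated exon length moved with the direction of change. The 12 genes that rose had a median annotated exon length of 1752 bp (672 to 8627), and the 6 that fell 6808.5 bp (2679 to 12096). Spearman's rho of the log2 fold change with length was -0.38 over the 55 genes, -0.31 within the 17 TOP messages, -0.50 within the 38 others and -0.22 over 14269 tested genes; genes of 1 fit share the same libraries, and these are descriptions. Over all genes, divided by length into 5 bins of like size, the median went from 0.25 in the shortest to -0.13 in the longest. With a correction of each library for length and GC content, chosen after this was seen, the TOP median was 0.57 with 8 called higher and the others stood at -0.25. SNHG8 and RACK1, and EIF4E and EEF2K, were not called under it (edgeR adjusted p = 0.0580, 0.0884, 0.110 and 0.0640). EIF3F was called higher (0.0326) and EIF3B, EIF2B4 and EEF1E1 were called lower under it, which made 11 genes higher and 7 lower. NACA and TPT1, TOP messages with long annotated exon unions (8627 and 5631 bp), stayed called. Such a union can far exceed the message that is expressed, and the expressed lengths were not measured.

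**Figure D5:**
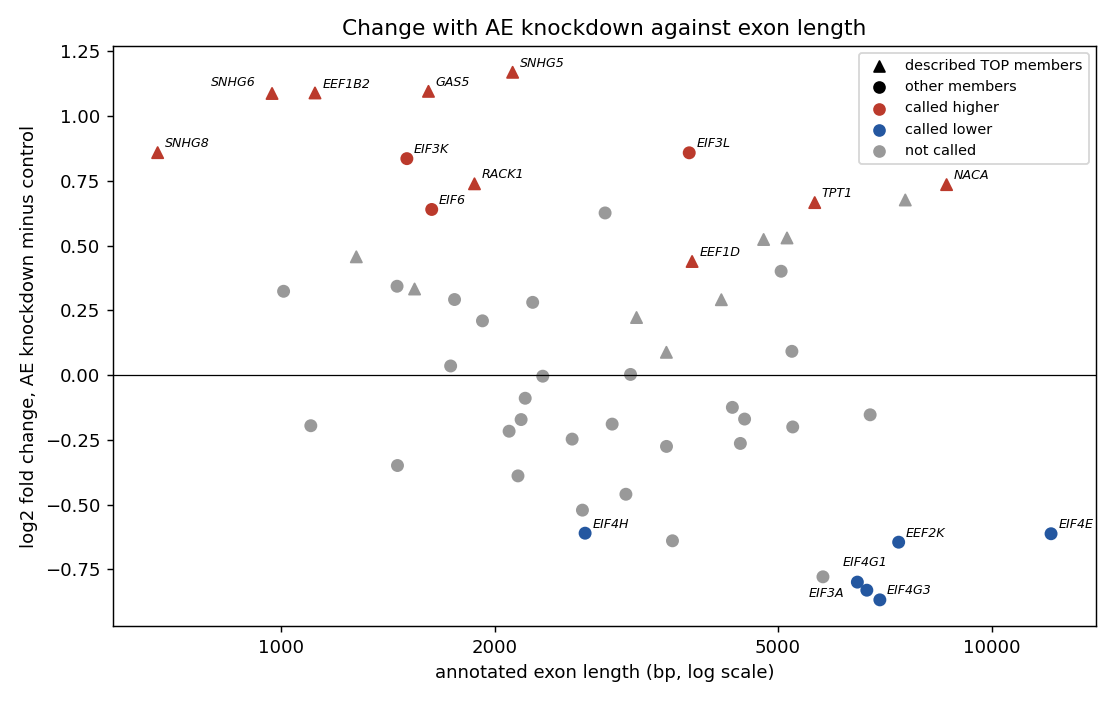
Log2 fold change with AE knockdown against annotated exon length (log axis) for the 55 tested genes; triangles are TOP messages, circles the others, and colours mark the calls. Genes that fell lie at 2679 bp and above, and the TOP messages lie above 0 from 672 to 8627 bp.

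The same changes were also read by annotated start. Of the 16 genes with a TOP start 6 rose and 0 fell, 15 were above 0 and the median was 0.58; EIF2A, at -0.09, was the 1 below 0. Of 29 tested genes with other starts 3 rose and 5 fell, with a median of -0.20. Over the 731 tested genes with a TOP start 143 rose and 68 fell (median 0.13), and over the 670 of these that are neither among the 56 nor ribosomal protein genes 102 rose and 68 fell (median 0.07). The 9099 tested genes with other starts gave 1021 rises and 1071 falls (median 0.01). Start sites were matched for 9830 of the 14741 tested genes, so these counts describe the matched genes only. EIF3K, with its tract of 8 pyrimidines, rose though it is not among the described TOP messages, while EIF6, GAS5 and SNHG8 rose with no tract at their annotated first bases. With the slack of 5 bases SNHG8 has a TOP start, but so do EEF2K and a start site of EIF4G1, and both of these genes fell.

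With LYL1 knockdown 0 of the 55 tested genes were called in either direction by edgeR, DESeq2 or limma-voom, and 0 had an unadjusted edgeR p below 0.05. The background was 0.0136% of all tested genes called, that is 2 genes, and 711 genes had an unadjusted p below 0.05. The median log2 fold change was -0.02, with a range from -0.52 for EIF3C to 0.27 for EIF4G2 (SE 0.13). The 17 TOP messages had a median of -0.01, with 8 above and 9 below 0. Their library medians were 0.13, 0.03 and -0.34 for shRNAs 538, 540 and 542, so the 3 LYL1 libraries did not move together.

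The direct contrast of AE with LYL1 knockdown called 13 of the 55 genes higher and 4 lower in the AE libraries, against backgrounds of 10.7% and 9.7% of all tested genes. It shares the AE libraries with the comparison above and is no independent repeat of it. Of the TOP messages 10 were higher and 0 lower, with a median of 0.67. EIF3F was called here and not against control (log2 difference 0.70, edgeR adjusted p = 0.0474), as was EIF4G2 (-0.44, adjusted p = 0.0426), whose LYL1 libraries lay above and AE libraries below the controls. EIF4E, EIF4H and EEF2K were called against control and not here (adjusted p = 0.0587, 0.147 and 0.221), while EIF3A, EIF4G1 and EIF4G3 were lower in both.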

How the data were processed

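RNA was sequenced in 9 Kasumi-1 libraries, 3 per group. Each deposited file gives the raw counts of 1 library by gene symbol, 59648 genes in all, as whole numbers. The submitters' processing notes name build hg19, featureCounts 2.0.1, HISAT2 2.2.0, DESeq2 1.26.0, SAMtools 1.7 and fastp 0.20.1 without saying what each did; the annotation, strand setting and treatment of multiply mapping reads are not given in the sources used here. In 6 files 5 gene names carried a decimal suffix, which was removed.

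Genes were kept with filterByExpr by group (14741 genes) and scaled by TMM. CPM values are counts relative to the scaled library size. All 9 libraries entered one group-means model, tested by quasi-likelihood F tests in edgeR 4.0.16 (limma 3.58.1, R 4.3.3) with robust dispersions. Benjamini-Hochberg adjustment ran over all tested genes, with 0.05 as the threshold of a call. The standard error is the log2 fold change divided by the square root of F. The 3 contrasts were AE knockdown and LYL1 knockdown against control, which share the controls, and AE against LYL1 knockdown. The fit was tested on simulated counts.

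Exon lengths, GC content and shared exon bases come from GENCODE release 29 (GRCh38), not the authors' annotation. Lengths are unions over the transcripts that GENCODE places in its basic set. Start sites come from RefSeq (GRCh38.p14). Coordinates belong to that build. Start sites were matched for 9830 of the 14741 tested genes, too few for a check over all of them, so values over genes with a TOP start are descriptions.

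Alternatives were other scalings and filters, DESeq2 1.42.0, limma-voom, fits of 6 libraries, a replicate block, a threshold of 0.01, leaving out each library, and the set without 4 genes that have near-identical copies (EEF1A1, EIF3C, NACA, TPT1). A legacy test, a length and GC correction, and a limit of 20% shared exon bases were added after seeing the data. The 56 genes and all lists were chosen with earlier results of these data known. Any of the 56 may be named; from the other lists, up to 4 genes with the smallest adjusted p with AE knockdown, and RUNX1T1, LYL1, MYC and MTOR. MKI67 and BPI fall under that rule, and EIF5A2 was named after its value was seen.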

Additional observations from a re-analysis of the deposited data

Results flagged for a closer look

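AE and LYL1 knockdown differed, by the direct contrast of the same edgeR model, in 17 of the 55 tested genes. Higher with AE than with LYL1 knockdown, as log2 differences, were the eIF3 subunits EIF3F (0.70), EIF3K (0.91) and EIF3L (0.96), EIF6 (0.72), and the elongation factor subunits EEF1B2 (1.04) and EEF1D (0.55). The TOP proteins TPT1 (0.67), NACA (0.73) and RACK1 (0.86) and the snoRNA hosts GAS5 (1.05), SNHG5 (1.19), SNHG6 (1.03) and SNHG8 (0.77) were higher too. Lower were EIF3A (-0.73), EIF4G1 (-0.66), EIF4G2 (-0.44) and EIF4G3 (-0.92).

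The differences in EIF3A, EIF3K, EIF4G3, EIF6, EEF1B2, GAS5, SNHG5 and SNHG6 were called under all 20 alternative fits of this contrast at the threshold of 0.05. At 0.01 GAS5 was not called (edgeR adjusted p = 0.0106). EIF3F and TPT1 were each not called in 12 of the 20, EIF4G2 in 11 and RACK1 in 8. The TOP messages of LYL1 library 542 lay below the controls (median -0.34). Without that library the difference was 0.55 for EIF3F (edgeR adjusted p = 0.158), 0.70 for RACK1 (0.111) and 0.63 for TPT1 (0.131).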

How the results depend on the processing

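EIF3A, EIF3K, EIF4G3, EEF1B2, GAS5, SNHG5 and SNHG6 kept their call against control under all 21 alternative fits at the threshold of 0.05, and none of the 18 called genes changed sign under any. With AE knockdown, 12 genes of the set were called higher and 6 lower. DESeq2 called 10 lower, and a threshold of 0.01 left 5 higher and 2 lower. Leaving out 1 library gave 5 to 17 higher and 2 to 11 lower: without control replicate 1, 2 or 3 there were 6, 6 and 5 higher and 2, 2 and 3 lower, and without AE knockdown replicate 2 there were 17 higher and 11 lower. For AE against LYL1 knockdown (13 higher, 4 lower) DESeq2 gave 8 lower, the 6 libraries alone 6 higher and 2 lower, and a threshold of 0.01 5 higher and 2 lower. Leaving out 1 library gave 6 to 16 higher and 2 to 11 lower, with 7 higher without LYL1 library 540, 6 without 542, 2 lower without 538 and 11 lower without AE replicate 2. With LYL1 knockdown 0 genes of the set were called under every alternative run.

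Over all genes, 3214 were called with AE knockdown, 813 at 0.01, and 954 to 4267 without 1 library, with 1096, 954 and 1050 without control replicates 1, 2 and 3. For AE against LYL1 knockdown 3003 were called, 1710 by limma-voom with a spread per group, 941 with 6 libraries, 784 at 0.01, and 1467 to 4007 without 1 library, with 1830 without LYL1 library 538 and 1467 without 542. With LYL1 knockdown 2 genes were called, 5 with library size only, 8 with no filter, 1 with a filter of 50 counts in 3 libraries, 33 by DESeq2, 26 by limma-voom with a spread per group, 15 with 6 libraries, 1 at 0.01, 1 with the length and GC correction, and 1 to 11 without 1 library, the 11 without AE replicate 3. The mean share of counts in the 56 genes with AE knockdown was 3.44%, and 4.23% of counts outside mitochondrial and ribosomal protein genes.

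Control and AE libraries share replicate numbers, but deviations of same-numbered libraries correlated at 0.06, -0.02 and 0.02, so the libraries were not treated as pairs. With a replicate block 7 genes of the set were called higher, 3 lower and 1629 over all. No paired analysis was possible for LYL1 knockdown because its libraries carry other numbers. Genes with few reads (EIF3C, EIF4A1) have wide errors, and EEF1G cannot be read from these counts.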

Other observations

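FAU, a TOP message that encodes a small-subunit ribosomal protein, was at 231, 230 and 198 CPM with control shRNA, at 314, 332 and 503 CPM with AE knockdown and at 246, 243 and 229 CPM with LYL1 knockdown (log2 fold change with AE knockdown 0.80, edgeR adjusted p = 0.0130). TMSB4X, an actin-binding peptide, was at 696, 724 and 755 CPM with control shRNA, at 1185, 1138 and 1340 CPM with AE knockdown and at 871, 751 and 684 CPM with LYL1 knockdown (0.75, edgeR adjusted p = 0.00786). In both genes the AE libraries lay above all 6 others.

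The row of AP002990.1, which shares 99.9% of the annotated exon bases of EEF1G, held 19 to 45 counts per library.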
